A study of Mus musculus with 6 samples.

Results

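A group of 9 genes of the complement system that are expressed in skin were followed here through whole skin of 6 mice: C1qa, C1qb, C1qc, C1s1, C2, C3, C4b, Cfb and Cfd. They were chosen by gene symbol from the 23951 genes of the expression table. Of the 9 symbols, 8 were found as listed, and C1s was found under its present mouse name, C1s1. The mice were 3 controls, labelled JunB +/+, and 3 animals labelled JunB dep, all C57Bl/6 and 6 to 7 months old. JunB dep mice lack the transcription factor JunB in cells that express keratin 5, because the Cre recombinase is driven by the keratin 5 promoter. Cells of the skin outside that lineage keep the gene. The study describes the JunB dep skin at this age as lesional. The sources used here do not give the sex of each mouse. Levels are in FPKM, fragments per kilobase of transcript and scaled to the mapped fragments of the library, so that levels of different genes can be set side by side. The read depth behind each value is unknown, and no counting interval is given.

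Complement is a cascade of plasma and tissue proteins that tags microbes and dead cells, recruits leukocytes and punctures membranes. The classical pathway starts with C1q, a protein built from the chains encoded by C1qa, C1qb and C1qc, which binds antibody or surfaces and carries the proteases C1r and C1s. C1s cuts C4 (C4b in the mouse gene name) and C2 to make a convertase that cleaves C3, the central component. The alternative pathway reaches C3 by another route, with factor B (Cfb) as the convertase protease and factor D (Cfd, also called adipsin) as the enzyme that activates factor B. The liver makes most complement protein of the blood, while macrophages are the usual source of C1q in tissue, fibroblasts make C1s, C4 and C3, and adipocytes are known for very high Cfd.

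The genes lie in a few blocks of the mm9 genome, the build the authors used. C1qb, C1qc and C1qa follow each other on the minus strand of chromosome 4 between 136436044 and 136454718, with 3616 and 2851 bases between neighbours. C4b (34865325 to 34880827), Cfb (34993319 to 34999463) and C2 (34999549 to 35035397) share the minus strand of chromosome 17. Only 85 bases separate Cfb from C2 in the annotation, and the record Gm20547 overlaps both. C3 is on the same chromosome from 57343397 to 57367559. Cfd is on chromosome 10 from 79353598 to 79355401 and has 5 exons. C1s is on chromosome 6 in a record from 124480363 to 124586998 that also overlaps C1rb. The promoter window printed below for C1s1 lies inside this record. C4b and its neighbouring copy C4a shared 35.2% of the 50-base windows of the C4b transcript, so reads from either gene could be split between them by the counting, and C4b values are uncertain to that extent. C4a itself averaged 0.435 ± 0.441 FPKM in controls (SD, n = 3), with JunB dep mice at 0.244 ± 0.0282 FPKM.

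Promoters are shown for 4 genes that stand for the patterns of level described below, C1qb and C1s1 for the classical pathway, C3 for the centre of the cascade and Cfd for the adipocyte enzyme. Each is the 250 bases before the transcription start in RefSeq (window from the GRCm38.p6 table, placed on mm9 by exact match), written 5′ to 3′, with capitals marking the letters of a C/EBP element on either strand.
C1qb (mm9 chr4:136442116-136442365, minus strand): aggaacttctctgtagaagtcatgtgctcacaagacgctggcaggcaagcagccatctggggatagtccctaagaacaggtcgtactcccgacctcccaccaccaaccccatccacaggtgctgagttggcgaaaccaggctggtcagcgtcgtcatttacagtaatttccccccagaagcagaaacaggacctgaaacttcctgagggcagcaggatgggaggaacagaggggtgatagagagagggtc
C1s1 (mm9 chr6:124492378-124492627, minus strand): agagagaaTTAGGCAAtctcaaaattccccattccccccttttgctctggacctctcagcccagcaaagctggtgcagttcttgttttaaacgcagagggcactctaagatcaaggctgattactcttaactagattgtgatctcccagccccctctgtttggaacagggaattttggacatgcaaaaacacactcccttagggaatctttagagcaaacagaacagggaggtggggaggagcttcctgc
C3 (mm9 chr17:57367560-57367809, minus strand): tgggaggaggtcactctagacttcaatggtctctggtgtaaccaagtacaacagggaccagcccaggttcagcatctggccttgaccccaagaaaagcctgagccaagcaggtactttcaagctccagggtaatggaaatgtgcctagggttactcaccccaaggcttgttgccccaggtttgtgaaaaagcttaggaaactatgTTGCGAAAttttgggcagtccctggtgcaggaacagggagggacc
Cfd (mm9 chr10:79353348-79353597, plus strand): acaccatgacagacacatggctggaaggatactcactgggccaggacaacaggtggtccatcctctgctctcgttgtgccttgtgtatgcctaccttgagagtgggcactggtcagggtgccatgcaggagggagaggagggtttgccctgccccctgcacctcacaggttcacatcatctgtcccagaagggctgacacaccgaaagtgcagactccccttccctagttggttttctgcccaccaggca
Windows were found for 5 of the 9 genes (C1qb, C1qc, C1s1, C3 and Cfd). AP-1, STAT (GAS), C/EBP and kappaB motifs were searched on both strands. The AP-1 letters TGANTCA, the element that JunB-containing dimers bind, occurred in 0 of the 5 windows and in 6.75% of 32851 RefSeq windows of the same length. The STAT element TTCNNNGAA also occurred in 0 of the 5, against 7.02% of all windows. The C/EBP letters TTGCNNAA were present in C1s1 and C3 (9.56% of all windows), in C3 from 45 to 38 bases before the start. A kappaB consensus was present in C1qc (7.25% of all windows). The C1qc window, 136448830 to 136449079, reaches into the annotated C1qc gene and holds exon sequence of it. The kappaB element lies in the part inside the gene. None of these searches shows where a factor binds.

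The libraries differed in make-up in ways that touch the complement genes. Junb, the deleted gene, was at 59.3, 72.4 and 56.9 FPKM in JunB +/+ replicates 0, 1 and 2, at 42.8 and 28.0 FPKM in JunB dep replicates 1 and 2, but reached 129.6 FPKM in the library labelled JunB dep replicate 0 (log2 fold change over all mice -0.21, limma adjusted p = 0.901). Junb was thus highest in a library labelled JunB dep, and the genotype of that library is in doubt. Cells outside the keratin 5 lineage keep the gene, so the whole-skin level cannot settle the genotype. Every genotype difference and every spread among JunB dep mice given here rests on the label of that library. That library also held 6 neutrophil markers at a summed 24966 FPKM, against 14.2 to 1470 FPKM in the other 5 libraries. S100a8 alone made up 24456 FPKM of that sum, and 5 of the 6 markers were highest there, while S100a9 was listed at 0 in it and at 3.81 to 698 FPKM in the others. The same library held 10 adipocyte markers at a summed 95.6 FPKM, against 1463 to 10793 FPKM. JunB +/+ replicate 0 held 10 liver markers at a summed 2409 FPKM, against 3.09 to 52.9 FPKM in the others. Summed levels of 8 skeletal muscle markers were 15641 to 20391 FPKM in controls, with JunB dep mice at 1505 to 3742 FPKM. The lowest sum, 1505 FPKM, was in the library labelled JunB dep replicate 0. Of the 8 markers, 5 were called lower, where 1.38% of all genes tested were. Without any 1 of the JunB +/+ replicates, 0 of all genes tested were called. None of the genes on the lists for macrophages (8), dendritic and Langerhans cells (5), neutrophils (6), fibroblasts (10), adipocytes (10), liver (10), keratinocytes (8) or erythrocytes (5) was called, and an unadjusted p below 0.05 was found for 1 dendritic and 2 fibroblast genes (7.56% of all genes tested). Keratinocyte markers summed to 6184 to 11998 FPKM, although Krt14 was listed at 0 in the library labelled JunB dep replicate 0. Fewer cells of a type and less RNA per cell cannot be told apart in whole tissue.

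No complement gene among the 9 differed between the genotypes by more than the spread between mice. With limma on the log2(FPKM + 0.5) scale and Benjamini-Hochberg adjustment over 17021 genes, 0 of 9 had an adjusted p below 0.05, where 1.38% of all genes tested did, all of them lower in JunB dep. At an unadjusted p below 0.05 the count was also 0 of 9, against 7.56% of all genes (6.13% lower and 1.43% higher in JunB dep). The adjusted p-values lay between 0.722 and 0.917. The values of the 3 JunB dep mice overlapped those of the 3 controls for all 9 genes, while the groups did not overlap in 14.8% of all genes (9.16% lower and 5.62% higher). All 9 passed the filter of a mean of 0.1 FPKM. For a single gene in 6 mice the smallest two-sided p that an exact permutation test allows is 0.1.

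**Figure D1:**
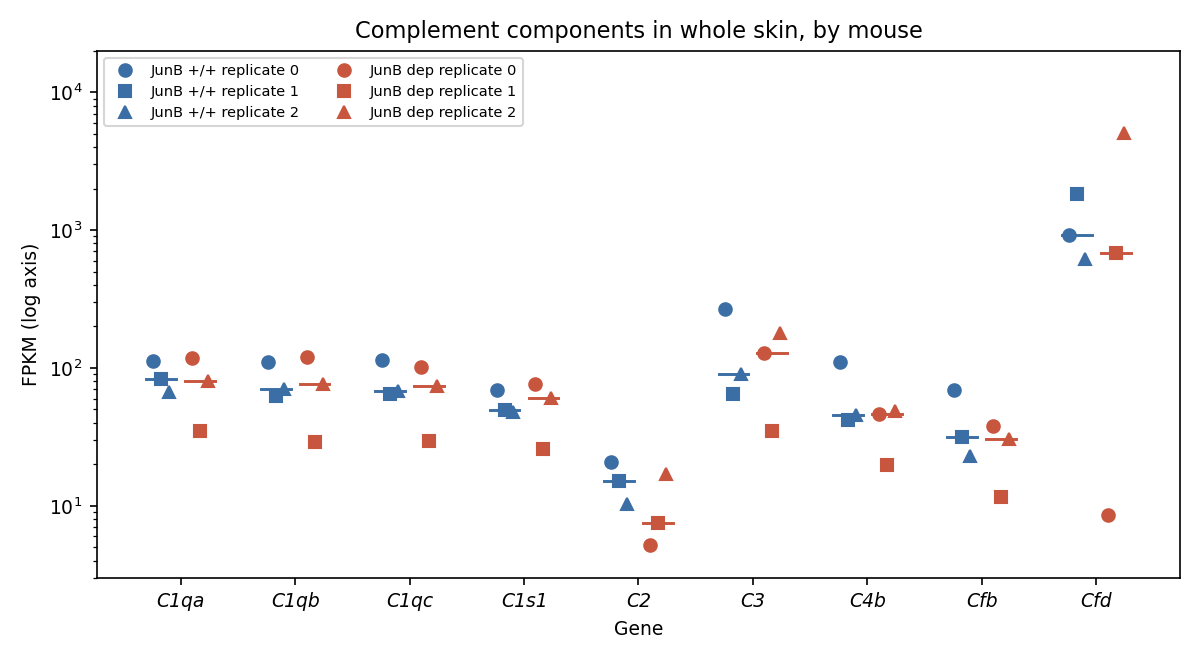
Level of each gene in each mouse, in FPKM on a log axis, with JunB +/+ in blue and JunB dep in red. Symbols mark the replicate number and bars mark the median of 3 mice. The 2 genotypes overlap for every gene, JunB dep replicate 1 is lowest for 7 genes, and Cfd runs from 8.51 to 5034 FPKM within the JunB dep mice.

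In the controls the levels followed an order with few clear steps. Cfd was highest, at 1121 ± 633 FPKM (SD, n = 3). C3 was next at 140.3 ± 109 FPKM, followed by C1qa at 87.2 ± 22.8, C1qc at 81.8 ± 27.3, C1qb at 81.2 ± 26.0, C4b at 65.7 ± 38.4, C1s1 at 55.3 ± 11.5 and Cfb at 41.3 ± 24.7 FPKM. C2, the other protease of this family, was lowest at 15.4 ± 5.20 FPKM. Neighbours from C3 to Cfb overlapped between mice. The lowest control value of Cfd (614 FPKM) was above the highest of C3 (266 FPKM), and the highest control value of C2 (20.7 FPKM) was below the lowest of Cfb (23.0 FPKM).

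The C1q chains came first in the classical pathway and moved as a block from mouse to mouse. C1qa, the A chain, was at 112, 82.5 and 67.2 FPKM in JunB +/+ replicates 0, 1 and 2 and at 117, 34.9 and 79.9 FPKM in JunB dep replicates 0, 1 and 2. C1qb, the B chain, was at 111, 62.3 and 70.6 FPKM in controls, with JunB dep mice at 119, 28.8 and 76.2 FPKM. C1qc, the C chain, was at 113, 64.5 and 67.5 FPKM in controls, with JunB dep mice at 102, 29.4 and 73.3 FPKM. The libraries labelled replicate 0 were the highest of each genotype for all 3 chains, and JunB dep replicate 1 was the lowest of all 6. Although each chain ranged 3.36-fold to 4.14-fold over the mice, the ratio of C1qa to C1qb stayed between 0.952 and 1.32, that of C1qa to C1qc between 0.988 and 1.28, and that of C1qb to C1qc between 0.966 and 1.17.

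The genotype difference of the chains was small beside its error. The log2 fold change was -0.31 for C1qa (standard error, SE, 0.47, 95% interval -1.44 to 0.83, limma adjusted p = 0.823), -0.29 for C1qb (interval -1.61 to 1.02) and -0.38 for C1qc (interval -1.59 to 0.82). These intervals hold values well below 0 as well as 0, so the data do not show that the genotypes are alike. Without JunB dep replicate 1 the values turned to 0.18, 0.28 and 0.13. Without the library labelled JunB dep replicate 0 they were -0.69, -0.74 and -0.76.

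Most but not all macrophage transcripts varied alongside C1q. Csf1r, the receptor for colony-stimulating factor 1 that marks macrophages, gave a C1qa to Csf1r ratio of 2.94, 4.43 and 2.92 in JunB +/+ replicates 0, 1 and 2 and of 3.97, 4.18 and 3.70 in JunB dep replicates 0, 1 and 2. That ratio spanned 1.52-fold, where C1qa itself spanned 3.36-fold. Over the 8 macrophage markers the ratio with C1qa spanned 1.52-fold (Csf1r) to 11.7-fold (Mertk, a receptor for dead cells), and for 6 of the 8 it spanned less than C1qa. The exceptions, Mertk and Maf, went the other way. They were highest in JunB dep replicate 1, at 5.10 and 33.6 FPKM, where all C1q chains were lowest. The summed macrophage markers were at 75.9 to 139 FPKM in controls, with JunB dep mice at 68.1 to 142 FPKM. Their part in the C1q values was not tested.

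C1s1, the protease that C1q carries, shared its highest and lowest library with C1qa and C1qb. It was at 68.6, 49.9 and 47.5 FPKM in JunB +/+ replicates 0, 1 and 2 and at 76.8, 25.9 and 60.7 FPKM in JunB dep replicates 0, 1 and 2. Its log2 fold change was -0.14 (SE 0.42, interval -1.17 to 0.89, limma adjusted p = 0.917), the closest to 0 of the 9 genes. The sign was not stable, with 0.32 without JunB dep replicate 1 and 0.02 without JunB +/+ replicate 0. C1ra, the partner protease encoded beside it, averaged 23.2 ± 6.08 FPKM in controls (SD, n = 3), with JunB dep mice at 22.5 ± 12.2 FPKM. The ratio of C1s1 to C1ra lay between 2.27 and 2.93 in all 6 mice. C1ra shared 47.5% of its 50-base transcript windows with the copy C1rb, which lay between 0.0186 and 0.248 FPKM, so its value is uncertain in part. Windows shared between C1s1 and the gene C1s2, which lay between 0.0605 and 0.445 FPKM, were not counted.

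C4b and C2, which C1s cuts, were lower on average in JunB dep mice without passing the test. C4b was at 110, 41.8 and 45.2 FPKM in JunB +/+ replicates 0, 1 and 2 and at 46.4, 19.8 and 48.3 FPKM in JunB dep replicates 0, 1 and 2. JunB +/+ replicate 0, the library with liver transcripts, stood above the other 5, and JunB dep replicate 1 below them. The log2 fold change of C4b was -0.73 (SE 0.51, interval -1.97 to 0.50, limma adjusted p = 0.722), and -0.29 without JunB +/+ replicate 0. C2 was at 20.7, 15.1 and 10.3 FPKM in controls, with JunB dep mice at 5.20, 7.49 and 17.1 FPKM. The library labelled JunB dep replicate 0 had the lowest C2 of all, unlike its C1q and C1s1. The log2 fold change of C2 was -0.72 (SE 0.47, interval -1.87 to 0.43, limma adjusted p = 0.722), -0.37 without the library labelled JunB dep replicate 0 and -1.18 without JunB dep replicate 2.

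C3, on which all routes of activation converge, was among the most uneven genes within each genotype. It was at 266, 64.3 and 90.8 FPKM in JunB +/+ replicates 0, 1 and 2 and at 128, 34.8 and 180 FPKM in JunB dep replicates 0, 1 and 2. The controls alone spanned 4.13-fold and the JunB dep mice 5.18-fold. The log2 fold change was -0.31 (SE 0.78, interval -2.20 to 1.58, limma adjusted p = 0.896). It turned to 0.28 without JunB +/+ replicate 0 and to 0.39 without JunB dep replicate 1. C3 is a major product of the liver, and Alb, the liver's albumin transcript, was at 823 FPKM in JunB +/+ replicate 0 and no more than 18.8 FPKM elsewhere. The part of that liver signal in C3, C4b, Cfb and C2 was not tested.

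Cfb, the protease of the alternative pathway convertase, was at 69.3, 31.6 and 23.0 FPKM in JunB +/+ replicates 0, 1 and 2. In JunB dep replicates 0, 1 and 2 it was at 37.7, 11.6 and 30.3 FPKM. As with C4b, the highest value was JunB +/+ replicate 0 and the lowest JunB dep replicate 1. Its log2 fold change was -0.63 (SE 0.57, interval -2.03 to 0.77, limma adjusted p = 0.726), and it was -0.18 without JunB +/+ replicate 0 and -0.13 without JunB dep replicate 1. C2 and Cfb are neighbours with related proteins, yet their ratio was not constant. The ratio of C2 to Cfb was 0.298, 0.480 and 0.448 in controls and 0.138, 0.647 and 0.564 in JunB dep mice, with the lowest value in the library labelled JunB dep replicate 0.

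Cfd, the enzyme that activates factor B, had by far the widest range. It was at 919, 1829 and 614 FPKM in JunB +/+ replicates 0, 1 and 2 and at 8.51, 688 and 5034 FPKM in JunB dep replicates 0, 1 and 2. The lowest value was in the library labelled JunB dep replicate 0, whose genotype is in doubt, and the highest in JunB dep replicate 2, 592-fold apart. The controls spanned 2.98-fold, and the other 2 JunB dep mice were at 688 and 5034 FPKM. In JunB dep replicate 2 Cfd was the gene with rank 2 by FPKM, in the library labelled JunB dep replicate 0 it had rank 7369, and in the controls it had ranks 40 to 144. The log2 fold change was -1.68 with an SE of 2.22 (interval -7.10 to 3.73, limma adjusted p = 0.799), and it was 0.88 without the library labelled JunB dep replicate 0 and -3.68 without JunB dep replicate 2. The ratio of arithmetic means, JunB dep over control, was 1.70 while that of geometric means was 0.311, so even the direction depended on how the mice were averaged.

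The 10 adipocyte markers spanned 17.7-fold (Pparg) to 4564-fold (Lep) over the 6 mice, on either side of the 592-fold of Cfd. Adipoq, which encodes the adipocyte hormone adiponectin, was at 310, 455 and 175 FPKM in controls, with JunB dep mice at 1.61, 213 and 936 FPKM, in the same order of mice as Cfd. The ratio of Cfd to Adipoq was 2.96, 4.02 and 3.52 in controls and 5.27, 3.23 and 5.38 in JunB dep mice, a 1.82-fold span. The lipid droplet gene Cidec gave ratios between 5.58 and 10.4. Across all 10 adipocyte markers the ratio spanned 1.82-fold to 34.2-fold, each less than Cfd itself, with the widest for Pparg, a regulator of fat cell genes that was still at 3.17 FPKM in the library labelled JunB dep replicate 0. All 10 markers were lowest in that library, and 0 of the 10 were called. Whether adipocyte content sets the Cfd values was not tested.

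**Figure D2:**
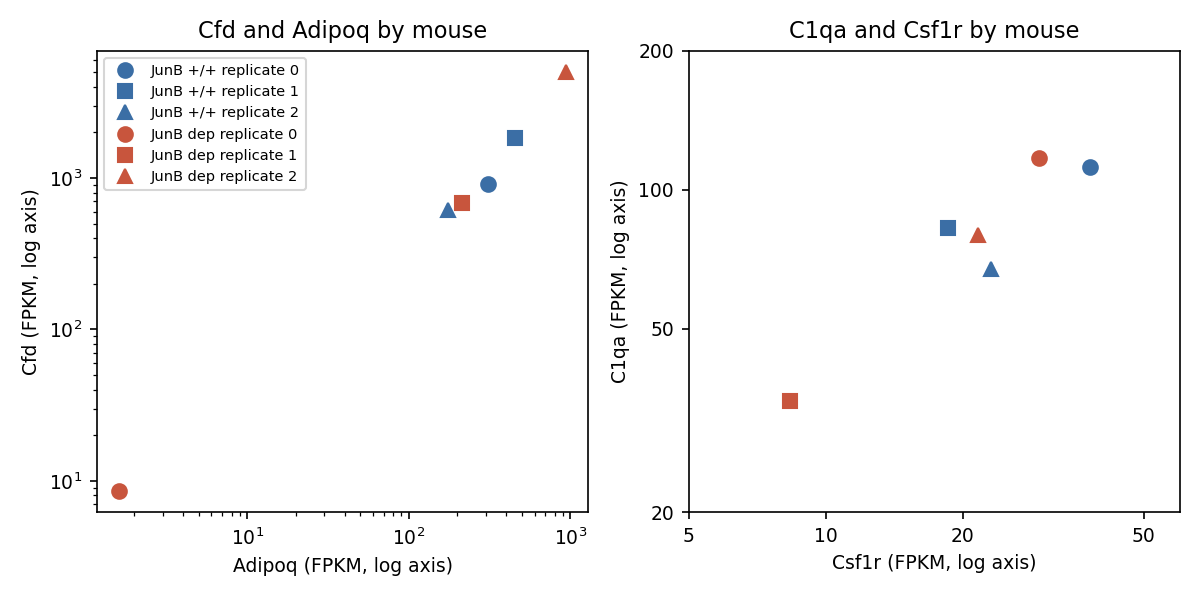
Cfd against Adipoq (left) and C1qa against Csf1r (right), one point per mouse, both axes in FPKM and logarithmic, JunB +/+ in blue and JunB dep in red. Cfd and Adipoq are lowest in the library labelled JunB dep replicate 0 and highest in JunB dep replicate 2, and C1qa and Csf1r are lowest in JunB dep replicate 1.

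The spread of each gene was also set beside 9 lists of cell type markers, by taking the mean log2 level of a list away from the gene in each mouse. For Cfd the SD over the 6 mice was 3.13 on the log2 scale as measured and 0.871 against the adipocyte list, while every other list left it at 2.61 or more. For C1qa, C1qb and C1qc it was 0.629, 0.729 and 0.681 as measured and 0.339, 0.353 and 0.315 against the macrophage list, with 0.406, 0.410 and 0.354 against the fibroblast list. C1s1 had 0.551 as measured, 0.291 against the macrophage list and 0.399 against the fibroblast list. C4b and Cfb had 0.776 and 0.833 as measured and 0.395 and 0.495 against the fibroblast list, with 0.464 and 0.523 against the macrophage list. C3 went only from 1.05 to 0.738 against the macrophage list and to 0.741 against the fibroblast list. C2 went from 0.727 to 0.434 against the keratinocyte list and to 0.460 against the dendritic and Langerhans cell list. Against the macrophage and fibroblast lists C2 rose to 0.813 and 0.787. The keratinocyte mean includes the 0 of Krt14 in the library labelled JunB dep replicate 0, where C2 was also lowest. The macrophage and fibroblast lists thus lowered the SD of 7 genes, all but C2 and Cfd, and no difference between lists was tested. The markers and the complement genes share the same 6 libraries, so these values are descriptions.

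Genes of the most similar pattern were taken for C1qa, C3 and Cfd by Pearson's r of log2 levels over the 6 mice, among 13733 genes whose mean reached 1 FPKM. As the highest of so many they carry no p. For C1qa they were Gpr141 (r = 0.995, Spearman's rho 1), Cd86 (r = 0.994), a costimulatory molecule of antigen-presenting cells, and Clec4a1 (r = 0.989). For Cfd they were Amy1 (r = 0.998), Ces1d (r = 0.998) and Vax2os (r = 0.998). For C3 they were Lrsam1 (r = 0.982), Ptplb (r = 0.978) and Lipa (r = 0.972), the lysosomal acid lipase. Leaving out the 2 mice farthest from the median of the complement gene kept r at 0.902 or above for each of these similar genes. The number of genes with r above 0.95 was 377 for Cfd, 66 for C1qa and 11 for C3.

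As a set, the 9 genes all had a log2 fold change below 0, with a median of -0.38, where 46.6% of all genes were below 0 and their median was 0.03. The genes share libraries, and this direction turned on single mice. JunB dep replicate 1 held the lowest value for 7 of the 9 genes and JunB +/+ replicate 0 the highest for 5. Without JunB dep replicate 1, 4 of the 9 were below 0 and the median was 0.13. Without JunB +/+ replicate 0, 7 were below 0 and the median was -0.13, and without the library labelled JunB dep replicate 0, 8 were below 0 and the median was -0.69. Without that last library the log2 fold change was -0.45 for C1s1, -0.54 for C3, -0.93 for C4b and -0.96 for Cfb. For 8 of the 9 genes, C4b being the exception, the spread on the log2 scale was larger among the libraries labelled JunB dep, the doubted one included, than among controls. The share of all genes with such a spread was not taken, so this is not shown to be particular to complement.

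**Figure D3:**
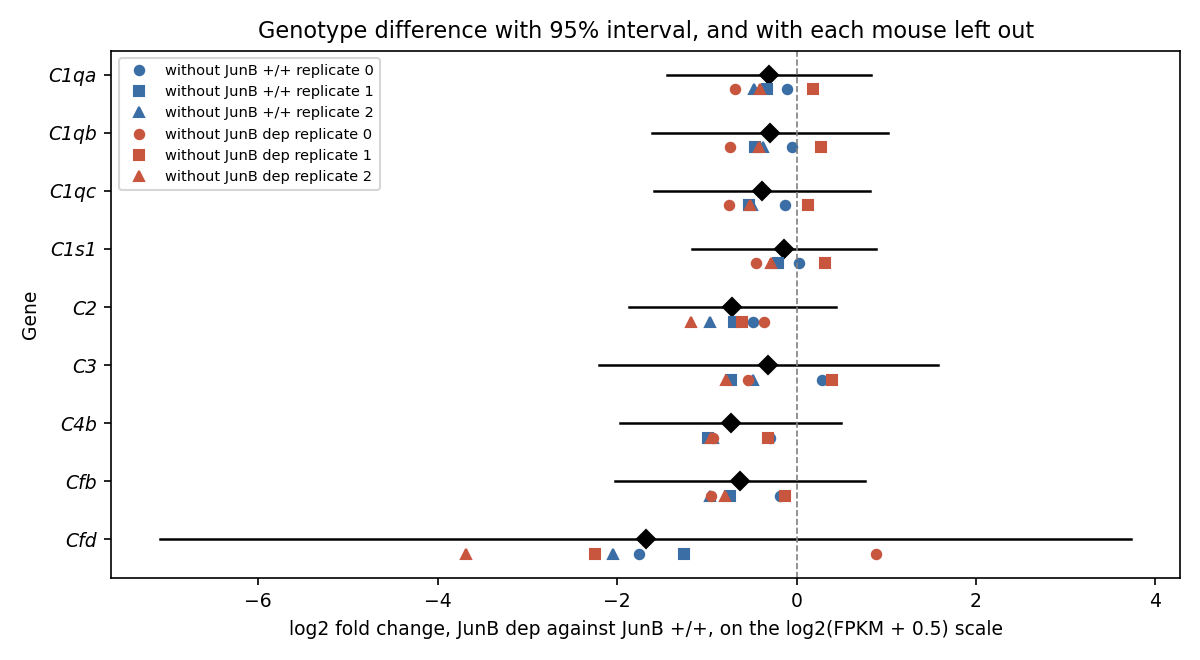
Log2 fold change of each gene, JunB dep against JunB +/+, as a black diamond with its 95% interval from limma, and below it the same value with 1 mouse left out (blue for JunB +/+, red for JunB dep, symbols for replicate numbers). Every interval holds 0, and Cfd ranges from -3.68 to 0.88 depending on the mouse left out.

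The rest of the pathway was read from 4 further lists of 45 genes, of which 42 passed the filter. Of these, 0 were called by limma, where 1.38% of all genes tested were, and 0 had an unadjusted p below 0.05 (7.56% of all genes). The groups did not overlap for 1 of the 42, where 14.8% of all genes did not overlap (9.16% lower). That gene was C9, a pore-forming component, at 10.6, 1.27 and 0.562 FPKM in controls, with JunB dep mice at 0.468, 0.399 and 0.50006 FPKM (limma adjusted p = 0.722). In direction, 34 of the 42 were lower on average, with a median log2 fold change of -0.69, and 27 of the 45 had their highest value in JunB +/+ replicate 0. Without that library 32 of the 42 passed the filter, so for the others the filter set the direction.

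The terminal components, which build the membrane pore, and other soluble factors were 11 genes with a median log2 fold change of -0.94, and 10 of them were highest in JunB +/+ replicate 0. C8a was at 9.28 FPKM there and at most 0.00599 FPKM in the other mice, and C6 at 10.6 FPKM against 0.525 to 2.49 FPKM. C8a, C8b and Cpn2 passed the filter only through that library, so the filter set their direction, which counts in the median. C7 differed, at 61.0, 0.267 and 16.1 FPKM in JunB +/+ replicates 0, 1 and 2 and at 0.503, 0.0818 and 0.256 FPKM in JunB dep replicates 0, 1 and 2. It was thus above 10 FPKM in 2 controls and below 1 FPKM in the other 4 mice, with a log2 fold change of -3.60 (SE 1.54, limma adjusted p = 0.677). Cfp, or properdin, which steadies the alternative convertase and is made by leukocytes, averaged 29.7 ± 7.82 FPKM in controls (SD, n = 3), with JunB dep mice at 28.3 ± 10.6 FPKM.

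The regulators, which keep the cascade from host cells, were 13 genes, all 13 lower on average (median log2 fold change -0.78) and none called. The C1 inhibitor Serping1 was the most abundant, at 296, 165 and 177 FPKM in controls, with JunB dep mice at 215, 45.5 and 126 FPKM. The membrane regulator Cd55, which takes convertases apart, was at 19.6, 22.5 and 19.4 FPKM in controls, with JunB dep mice at 6.26, 12.5 and 20.1 FPKM (log2 fold change -0.78, SE 0.40, limma adjusted p = 0.722). Cd59a, which blocks pore assembly, was at 24.2, 42.4 and 18.5 FPKM in controls, with JunB dep mice at 2.76, 12.3 and 31.8 FPKM. Both were lowest in the library labelled JunB dep replicate 0, within reach of controls in JunB dep replicate 2. Cr1l, the rodent membrane regulator also known as Crry, was more even, at 27.4 to 32.2 FPKM in controls, with JunB dep mice at 19.4 to 31.8 FPKM.

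The receptors, through which leukocytes read complement fragments, were the list with a median nearest to 0 (0.11, with 6 of 8 tested genes higher). The receptor for the C5a fragment, C5ar1, was at 5.79, 3.75 and 3.63 FPKM in controls, with JunB dep mice at 20.5, 1.79 and 4.69 FPKM. Itgam, a subunit of the receptor for cleaved C3 on neutrophils and macrophages, was at 8.86, 2.33 and 3.73 FPKM in controls, with JunB dep mice at 28.8, 1.70 and 3.69 FPKM. C3ar1, the C3a receptor, was at 2.60, 1.33 and 1.81 FPKM in controls, with JunB dep mice at 6.37, 0.549 and 1.39 FPKM. All 3 were highest in the library labelled JunB dep replicate 0, the one with the neutrophil transcripts, and lowest in JunB dep replicate 1. The part of neutrophil content in these receptor levels was not tested.

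**Figure D4:**
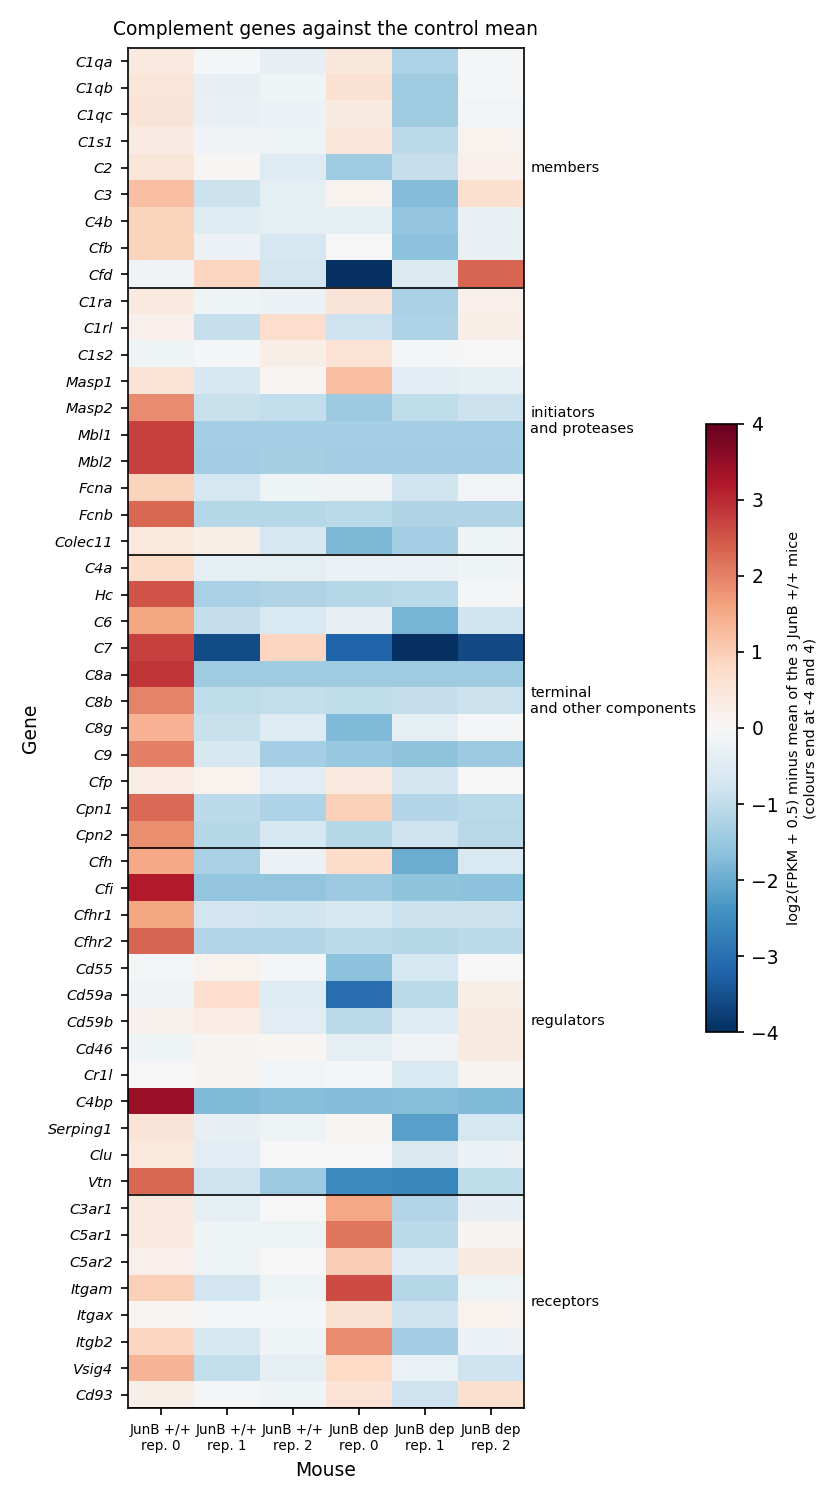
Each complement gene that passed the filter (rows, grouped by role) in each mouse (columns), as log2(FPKM + 0.5) minus the mean of the 3 JunB +/+ mice, red above and blue below, with colours ending at -4 and 4. JunB +/+ replicate 0 is red across the terminal components and many regulators, and the library labelled JunB dep replicate 0 is red across most receptors and dark blue for Cfd.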

How the data were processed

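Poly(A) RNA of whole skin from 3 JunB +/+ and 3 JunB dep mice was sequenced from stranded libraries. In the authors' nextpresso pipeline, reads were aligned to mm9 with TopHat 2.0.10, Bowtie 1.0.0 and SAMtools 0.1.19. The authors deposited FPKM values per gene and mouse. Cufflinks is named in the submitters' processing notes without a role, and no source used here states a scaling between libraries or whether counting used strand. For their own test the authors ran DESeq2, and its counts were not used here. FPKM values summed to 481078 to 630363 per mouse.

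Values were compared as log2(FPKM + 0.5) with limma 3.58.1 (R 4.3.3), two-sided, with an intensity trend, no block and Benjamini-Hochberg adjustment at 0.05, over the 17021 genes whose mean reached 0.1 FPKM. Fold changes on this scale understate the change of genes with low values. Each library is described by the study as 1 mouse, so p-values measure the spread between mice. The procedure was tested on simulated data. Gene positions come from GENCODE vM1 (mm9). The members, the lists and the alternatives were chosen with earlier results of these data known. The rule for named genes covered the 9 genes, Junb, the complement and marker lists (72 marker genes, 70 in the table) and the 3 genes most like C1qa, C3 and Cfd. Alternatives were other pseudocounts, filters, scalings, variance models, blocks and leaving out each mouse. One without both replicate 0 libraries was added after seeing the data.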

Additional observations from a re-analysis of the deposited data

How the results depend on the processing

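No setting called any of the 9 genes or of the other complement genes, and the count of members with an adjusted p below 0.05 stayed at 0 in all 17 other settings. The lowest adjusted p of a member in any of them was 0.202 and the lowest unadjusted p was 0.0201, both for C2 without JunB dep replicate 2. The count over all genes tested went from 235 to 0 with a replicate block, to 0 with a block on the number series of the sample titles (which no label calls a batch), to 0 without both replicate 0 libraries (chosen after seeing the data), and to between 0 and 254 with 1 mouse left out. It was 0 without any 1 of the JunB +/+ replicates or without JunB dep replicate 1, and 135 without the library labelled JunB dep replicate 0. For replicates 0, 1 and 2, the deviations from the group means correlated at 0.12, -0.23 and -0.43 between the mice sharing that number. So few correlations cannot show whether such mice shared anything beyond the number. The replicate block left the log2 fold changes of the members as they were and changed no call among them. Direction was less stable. In 142 of 153 comparisons of a member under an alternative the sign was kept. With the block on the number series, the log2 fold change of C1s1 was 0.0672, and it was -0.03 for C1qa and C1qb, -0.14 for C1qc, -0.11 for C3, -0.30 for Cfb and -2.78 for Cfd, each over 1.5 times away from its reported value, with -0.77 for C2 and -0.54 for C4b. Without both replicate 0 libraries, C3 was at 0.05 and Cfd at 0.81. With 1 mouse left out, the log2 fold changes ranged from -0.69 to 0.18 for C1qa, -0.74 to 0.28 for C1qb, -0.76 to 0.13 for C1qc, -0.45 to 0.32 for C1s1, -0.79 to 0.39 for C3 and -3.68 to 0.88 for Cfd. C2, C4b and Cfb kept a value below 0 in all of these settings, but its size varied. Over all settings it ranged from -1.18 to -0.13 for C2, -0.98 to -0.29 for C4b and -0.97 to -0.13 for Cfb. C2 was nearest to 0 without both replicate 0 libraries. The causes were not tested.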

Other observations

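The lectin pathway starts complement from microbial sugars, and its genes differed in level. The mannose-binding lectin gene Mbl1 was at 8.13 FPKM in JunB +/+ replicate 0 and was listed at 0 in all other mice, and the protease gene Masp2 was at 4.71 FPKM there and at most 0.277 FPKM elsewhere. Colec11, a collectin, was at 4.43, 3.85 and 1.80 FPKM in JunB +/+ replicates 0, 1 and 2 and at 0.550, 0.933 and 2.76 FPKM in JunB dep replicates 0, 1 and 2 (log2 fold change -1.11, SE 0.52, limma adjusted p = 0.710). Fcna, a ficolin of macrophages, was at 16.5, 5.14 and 7.64 FPKM in controls, with JunB dep mice at 7.77, 4.79 and 7.98 FPKM. The list of initiators and proteases, which also holds genes outside the lectin pathway such as C1ra, had 10 genes tested, with 0 called genes and 2 that were higher, and its median was -0.86 on the log2 scale. Mbl1, Mbl2 and Fcnb passed the filter only through JunB +/+ replicate 0, so the filter set their direction, which counts in that median. JunB +/+ replicate 0 was the library with liver transcripts, and their part in these levels was not tested.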
